A study of Mus musculus with 76 samples.

Results

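WT mouse extraembryonic ectoderm (ExE) of embryonic day 6.5 was set against WT blastocysts, the stage at which trophoblast first exists as an outer epithelium. Libraries were taken by their labels: 10 WT ExE libraries (6 female, 4 male) and 14 WT blastocysts (6 female, 8 male), 24 of the 76 libraries of the series. The series asked what loss of the maternal product of Ezhip, which encodes an inhibitor of the Polycomb complex PRC2, does to early embryos. Each library was labelled as polyadenylated RNA of a single embryo, the labels name no treatment and no strain. Ezhip matKO ExE (n = 8) and the matKO blastocysts of the prefix D707T (n = 8), both without maternal Ezhip, served to repeat the stage step under 1 identifier prefix.

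Trophoblast arises as the trophectoderm, a polarised epithelium that pumps fluid into the blastocyst cavity and encloses the inner cell mass. After implantation the trophectoderm next to the inner cell mass proliferates under fibroblast growth factor signals and forms the ExE, which holds trophoblast stem cells and sends bone morphogenetic protein signals to the epiblast. Visceral endoderm, a descendant of the primitive endoderm, wraps both ExE and epiblast at this stage and supplies transport proteins. A whole blastocyst also contains inner cell mass and primitive endoderm, so the 2 stages differ in cell content. In such bulk libraries, fewer cells of a type and less RNA per cell cannot be told apart.

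Total counts ran from 4928566 to 20735615 in ExE and from 6494506 to 31985958 in blastocysts. Counts of 4 Y-linked genes summed to 923 to 2133 in male ExE and 733 to 5697 in male blastocysts, and to 0 to 28 in female ExE and 0 to 2 in female blastocysts. The first principal component carried 63.3% of the variance and separated the stages without overlap. Blastocyst male 4 lay farthest from the others on the second component, at -156.7, where the other 13 ran from -84.6 to 65.3. ExE females 4 and 6 and male 2 stood apart from the other 7 ExE libraries on the fourth component, and without them 2277 genes were called higher and 1960 lower, against 2153 and 1796 with all libraries, a check chosen after seeing the data. All ExE libraries carry the identifier prefix D1042C, whereas 10 blastocysts carry D405T and 4 carry D707T. Stage and prefix therefore cannot be told apart, and genes are called here only past a 4-fold change with an adjusted p under 0.05. Levels are CPM, counts scaled by TMM to a common library size, fold changes are log2 of ExE over blastocyst with the standard error (SE), and an adjusted p is from edgeR over all tested genes unless another test is named.

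Of 12993 genes tested, 2153 were called higher in ExE, 16.6% of those tested, and 1796 were called lower, 13.8% of those tested. Both shares are the background for every count of list members below. The median log2 fold change over all tested genes was 0.05. The changes were large: 829 of the higher and 738 of the lower genes differed by more than 16-fold. In 1373 of the higher genes every ExE library lay above every blastocyst, and in 973 of the lower genes every ExE library lay below every blastocyst. Both counts were taken within genes already called for a large difference, so they support nothing by themselves. The matching count over all 12993 tested genes is not given here. No count at all was found in the blastocysts for 105 of the higher genes, nor in the ExE libraries for 104 of the lower genes. The median standard deviation of log2 CPM between libraries was 0.62 in ExE and 0.70 in blastocysts.

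The labelled tissue was checked against its markers first. Elf5, an ETS factor of trophoblast stem cells (mm10 chr2:103411688-103450989), had 87.0, 157 and 491 CPM as lowest, median and highest value in ExE, against 0, 8.74 and 43.4 CPM in blastocysts. The groups did not overlap, and its log2 fold change was 3.65 ± 0.733 (SE; adjusted p 9.8e-05). Rhox5, an X-linked homeobox gene active in extraembryonic lineages, had 636, 1538 and 2289 CPM in ExE, against 0, 0.997 and 8.60 CPM in blastocysts (log2 fold change 9.68 ± 0.718, adjusted p 9.0e-12). It is listed with the primitive endoderm genes as well, so its level does not by itself mark ExE. Bex1 ran from 314 to 1364 CPM in ExE and from 0 to 3.31 CPM in blastocysts (10.27, adjusted p 1.1e-12), and Car2, a carbonic anhydrase, from 65.9 to 157 CPM and from 0 to 2.37 CPM (8.5, adjusted p 3.0e-11). Of 18 ExE and chorion markers, 17 could be tested, of which 9 were called higher and 2, Cdx2 and Zfp42, lower. That is 52.9% and 11.8%, beside 16.6% and 13.8% of all tested genes. The list includes Rhox6, with 15.1 to 100 CPM in ExE and no count in 14 blastocysts, at least 4022-fold higher when the blastocysts are set at a floor of 3 counts over the group. A floor of that kind is used for every "at least" below. Rhox genes are a family of related copies, so the split of their reads is uncertain.

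Transcripts of visceral endoderm were abundant in every ExE library, which the label does not mention. The 18 genes of a visceral endoderm list summed to 2555, 8656 and 13417 CPM as lowest, median and highest value in ExE, against 30.7, 96.7 and 160 CPM in blastocysts. Spink1, a secreted protease inhibitor, reached 538, 2135 and 7094 CPM in ExE and 0 counts in all 14 blastocysts, at least 235518-fold higher. Ttr and Rbp4, which carry thyroid hormone and retinol, were at least 76559-fold and 25816-fold higher, again with 0 counts in blastocysts. Cubn and Amn, the receptor pair for uptake from the maternal side, stood at 351 to 1688 CPM and 269 to 1227 CPM in ExE, against 1.15 to 20 CPM and 0 to 53.5 CPM in blastocysts. In all, 16 of the 17 tested members were called higher and 0 lower, with Hhex, a marker of the anterior part, at 0.59 (adjusted p 0.14). Genes that passed the count filter through ExE alone had to differ, so this count supports nothing by itself. The part of visceral endoderm in the rises described below was not tested.

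The summed levels of 6 gene lists show how far apart the stages lay.

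**Figure D1:**
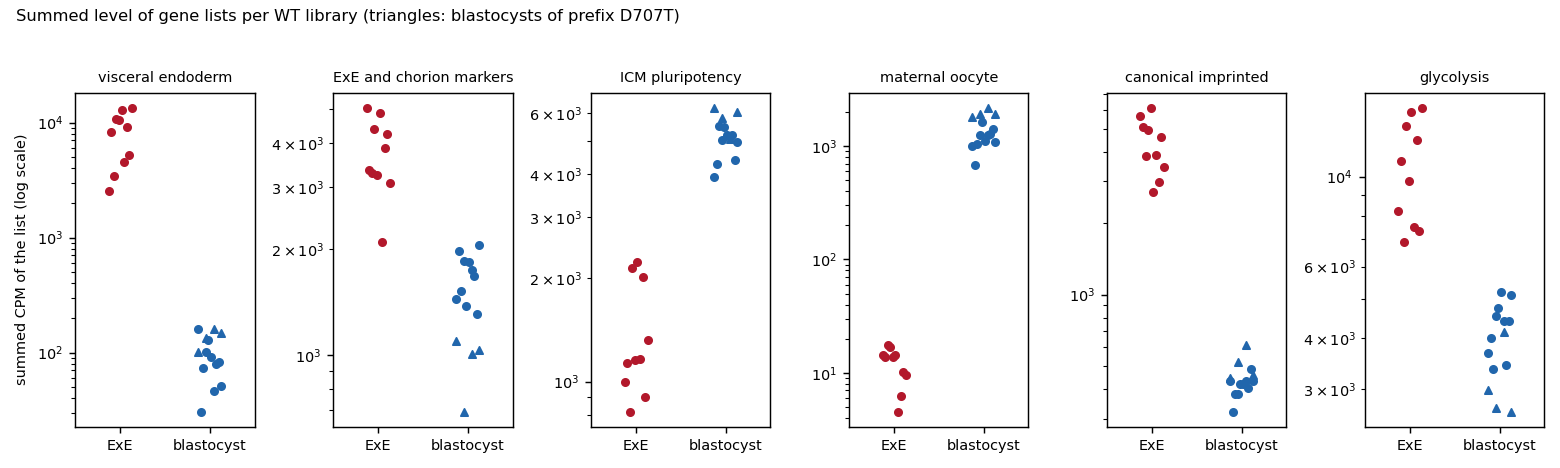
Summed CPM (log scale) of 6 gene lists in each of 10 WT ExE libraries (red) and 14 WT blastocysts (blue, triangles for the prefix D707T), where each point is 1 library. ExE lies above every blastocyst for visceral endoderm, ExE and chorion, canonical imprinted and glycolysis genes, and below every blastocyst for pluripotency genes and maternal transcripts. Most of the maternal sum in each blastocyst is Khdc3, whose reads are uncertain.

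Other cell types that a dissected piece could carry were read in the same way. Early mesoderm genes summed to 133 to 818 CPM in ExE and 10.5 to 119 CPM in blastocysts. The list holds Hand1 and Bmp4, which are also read below as ectoplacental cone and ExE genes. Hand1 gave 148 of 264 CPM in ExE female 1 and 71.6 of 818 CPM in ExE male 1. T, the streak factor Brachyury, ran from 9.67 to 265 CPM in ExE, against 0 to 5.35 CPM in blastocysts, a 6.71 ± 1.01 (SE) change (adjusted p 2.2e-06). Mesp1, a marker of nascent mesoderm that was too sparse for the test, ran from 0 to 249 CPM in ExE and was at 0 counts in all blastocysts. Epiblast and primitive streak genes summed to 605 to 2243 CPM in ExE and 552 to 1886 CPM in blastocysts, and of 12 tested 5 were called higher and 2 lower. In ExE female 1, Dnmt3b and Eomes gave 679 and 124 of 1222 CPM, and in ExE male 1 they gave 777 and 166 of 1955 CPM. Eomes is also listed as a trophoblast stem cell factor, so neither sum measures other cell types alone. Among the epiblast and streak genes, Pou3f1 ran from 3.53 to 37.6 CPM in ExE and from 0 to 0.478 CPM in blastocysts. Pou5f1 reached no more than 2.55 CPM in any ExE library. Of 18 decidua and uterine stroma genes, 7 could be tested and were called higher, with a median of 5.14. Members that passed the count filter through ExE alone had to differ. The count therefore supports nothing by itself, and 16.6% of all tested genes were called higher. Igfbp4 was at 12.37 (adjusted p 5.5e-20), Hoxa10 at 6.01 (adjusted p 3.8e-09) and Pdpn at 2.54 (adjusted p 1.3e-08), and Pdpn was under the limit without ExE females 4 and 6 and male 2 (1.81, adjusted p 1.6e-07). The list summed to 214 to 736 CPM in ExE and 20.5 to 71 CPM in blastocysts. Pdpn gave 105 of 214 CPM in ExE female 1 and 581 of 736 CPM in ExE female 4. It also gave 20.2 of 20.5 CPM in blastocyst male 8, so the sum does not measure decidua alone. The stromal collagen genes of the list were low, with Col1a1 at 0.106 to 10.2 CPM and Col3a1 at 0 to 1.5 CPM in ExE, and Dcn reached 2.38 CPM. Blood and macrophage genes summed to 1.88 to 85.0 CPM in ExE and 2.67 to 32.3 CPM in blastocysts, and 0 of the 1 tested was called. The part of these cell types in the results was not tested.

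Transcription factors of trophoblast stem cells went both ways. Of 20, 5 were called higher and 5 lower, 25% each way, beside 16.6% and 13.8% of all tested genes. The list's median was 0.02 beside 0.05 over all tested genes. Ets2, an effector of growth factor signals, had 75.6, 130 and 170 CPM in ExE, against 2.23, 14.3 and 44.5 CPM in blastocysts (2.88 ± 0.364, adjusted p 9.2e-08). Sox3 and Fosl1 were also called higher. Fosl1 was called over all blastocysts (4.33, adjusted p 0.0043) but stood at 1.21 against the D707T blastocysts alone (adjusted p 0.36) and at 1.71 in males alone (adjusted p 0.34). Sox3 had 0 counts in blastocysts and was at least 564-fold higher.

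The 5 factors that fell were Cdx2, Gata3, Klf5, Tfap2a and Tead4, which are known from the trophectoderm. Cdx2, which establishes trophectoderm identity, had 4.32, 8.57 and 17.7 CPM in ExE, against 35.5, 81.2 and 156 CPM in blastocysts. Its log2 fold change was -3.31 ± 0.295 (adjusted p 1.4e-10), and the groups did not overlap. Gata3 had 3.88, 11.4 and 35.4 CPM in ExE, against 233, 327 and 499 CPM in blastocysts (-4.47 ± 0.321, adjusted p 2.0e-12). Klf5 stood at -5.63 (adjusted p 7.6e-16), Tfap2a at -4.01 (adjusted p 1.8e-09) and Tead4, the DNA partner of YAP that acts upstream of Cdx2, at -2.53 (adjusted p 4.1e-11).

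The remaining 10 factors were not called. Sall4 (326 to 1203 CPM in ExE, 168 to 776 CPM in blastocysts), Esrrb, Tfap2c, Sox2 and Sox21 differed by 0.50, 0.71, -0.35, -1.05 and 0.38, and their ranges overlapped. Zfp281 and Id2 stood at 1.09 (adjusted p 1.1e-04) and 1.65 (adjusted p 7.7e-06), and the remodeller Smarca4 at -1.62 (adjusted p 6.3e-07). Eomes, the T-box factor needed for trophoblast stem cells, had 44.7, 125 and 526 CPM in ExE, against 76.5, 580 and 1007 CPM in blastocysts (-1.63 ± 0.470, adjusted p 0.0035). Its value changed sign with the blastocysts used, at -2.03 against D405T (adjusted p 6.7e-05) and 0.53 against D707T (adjusted p 0.40). Gata2, at -1.46 over all blastocysts (adjusted p 0.051), changed in the same way, at -1.93 against D405T (adjusted p 0.0017) and 2.10 against D707T (adjusted p 0.022). Elf5 was called against both, at 3.18 and 8.97.

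**Figure D2:**
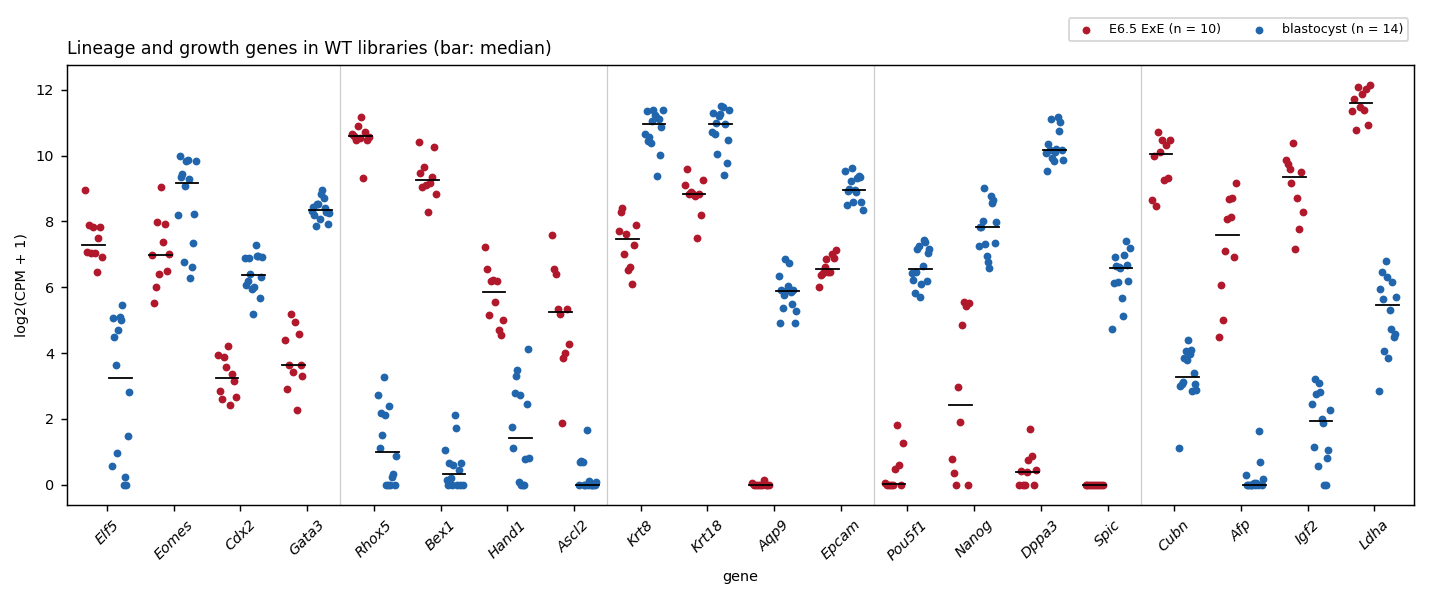
Level of 20 named genes, as log2 of CPM plus 1, in 10 WT ExE libraries (red, left of each pair) and 14 WT blastocysts (blue), with 1 point per library and a bar at the median. ExE lies wholly above the blastocysts for Elf5, Rhox5, Bex1, Hand1, Ascl2, Cubn, Afp, Igf2 and Ldha, and the stages overlap for Eomes and Krt18.

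Genes of the epithelium that makes the blastocyst cavity fell in part. Of 30 trophectoderm genes, 8 were called lower and 4 higher, 26.7% and 13.3%, beside 13.8% and 16.6% of all tested genes. The list's median was -0.78. In the matKO libraries under 1 prefix, the list had 8 higher, 4 lower and a median of 0.58, so its direction turned. Aqp9, a water and glycerol channel, had 0, 0 and 0.111 CPM in ExE, against 29, 57.9 and 115 CPM in blastocysts (-11.20 ± 0.474, adjusted p 4.2e-17). The keratin gene Krt8 had 68, 175 and 335 CPM in ExE, against 668, 2007 and 2677 CPM in blastocysts (-3.42 ± 0.299, adjusted p 9.5e-11), and its partner Krt18 fell by 2.08 (adjusted p 7.4e-08). The tight junction genes Cldn4 and Cldn7, Epcam, the lectin gene Lgals3 and the fatty acid carrier Fabp3 were the others called lower, between -2.41 and -4.31. Adhesion and junction genes Cdh1, Dsp, Ocln and Dsc2 differed by -0.11, -0.02, -0.47 and -0.15 and were not called, each with overlapping ranges. The 4 called higher were Krt19 (6.34), the claudin gene Cldn6 (2.17) and the glucose transporter genes Slc2a1 and Slc2a3. Cldn6 fell under the limit without ExE male 4. Of 22 genes of implantation and hatching, 14 could be tested, 5 were called higher (35.7%) and 2 lower (14.3%). The share called lower was near the 13.8% of all tested genes, and 16.6% of these were called higher. Spp1, which encodes osteopontin, fell by 10.65 (adjusted p 1.6e-10), while the lysosomal proteases Ctsl (3.78, adjusted p 8.0e-11) and Ctsb (4.03, adjusted p 2.4e-10) rose. Lif, a cytokine, was lower (-3.88, adjusted p 1.8e-04) but stood at -1.87 against the D707T blastocysts (adjusted p 0.20).

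Pluripotency genes of the inner cell mass mostly fell. Of 20, 12 were called lower and 1 higher, 60% and 5%, beside 13.8% and 16.6% of all tested genes, with a median of -2.68. Dppa3 (mm10 chr6:122626410-122630272), a maternal factor that protects DNA methylation imprints, had 0, 0.324 and 2.22 CPM in ExE, against 746, 1155 and 2319 CPM in blastocysts (-11.42 ± 0.566, adjusted p 1.1e-15). Pou5f1 had 0, 0.0231 and 2.55 CPM in ExE, against 50.9, 94.0 and 172 CPM in blastocysts (-7.87 ± 0.593, adjusted p 5.2e-12). Spic had 0 counts in ExE, at least 3143-fold lower. Nanog ranged among ExE libraries from 0 to 45.5 CPM with a median of 4.80, and ran from 95 to 512 CPM in blastocysts (-4.06, adjusted p 4.1e-05). Tdh, threonine dehydrogenase, was the exception, with 156, 239 and 409 CPM in ExE, against 3.63, 21.1 and 39.3 CPM in blastocysts (3.72 ± 0.266, adjusted p 1.8e-12). Tbx3, Tdgf1, Fgf4, Esrrb and Sall4 did not pass the test.

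Primitive endoderm genes were mostly higher, 14 of 20 (70%) with 1 lower (5%), beside 16.6% and 13.8% of all tested genes. Cubn and Amn stand both here and in the visceral endoderm list. Rhox5 stands both here and among the ExE and chorion markers. Foxa2 had 13.1, 32.6 and 52.8 CPM in ExE, against 0, 0 and 0.764 CPM in blastocysts (8.11 ± 0.680, adjusted p 4.4e-11), and Sox17, Gata4 and Sox7 were called higher at 3.09, 3.38 and 7.27. The 1 lower member was Gata6, an early regulator of primitive endoderm, with 9.41, 17.1 and 56.8 CPM in ExE, against 202, 282 and 399 CPM in blastocysts (-3.77 ± 0.252, adjusted p 4.8e-13). Of 20 basement membrane genes, 18 could be tested, 8 were called higher (44.4%) and 1 lower (5.56%). Col4a1 ran from 73.8 to 816 CPM in ExE and from 3.39 to 73.6 CPM in blastocysts (3.73, adjusted p 5.2e-08), and Agrn stood at 3.85 (adjusted p 4.6e-12). Itga6, a laminin receptor subunit, was lower (-2.15, adjusted p 7.8e-06), though it was not called against D707T blastocysts alone.

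Signalling genes of the ExE were in part higher: of 24, 21 could be tested, 8 were called higher and 0 lower. That is 38.1% higher, beside 16.6% of all tested genes. Bmp8b, which encodes a ligand that induces germ cells, had 8.65, 45.1 and 117 CPM in ExE, against 0, 0.222 and 9.20 CPM in blastocysts (5.74, adjusted p 2.3e-06). Bmp4, the main ligand sent to the epiblast, had 11.1, 35.4 and 84.6 CPM in ExE, against 0, 1.89 and 64 CPM in blastocysts, and at 1.94 (adjusted p 0.032) stayed under the 4-fold limit. The receptor gene Acvr1 and the transducer gene Smad1 were called higher at 2.12 (adjusted p 0.0083) and 5.60 (adjusted p 2.8e-07), as were the target genes Id1 (3.45, adjusted p 1.5e-10) and Id3 (2.68, adjusted p 7.9e-07). On the fibroblast growth factor side, the targets Etv4 (5.73, adjusted p 3.5e-07) and Spry4 (2.58, adjusted p 1.0e-04) were higher, while the receptor Fgfr2, at 26.8 to 139 CPM in ExE and 20.3 to 110 CPM in blastocysts, was not called (0.38, adjusted p 0.23). Spry2 stood at -1.75 (adjusted p 2.5e-04), under the limit. Ectoplacental cone genes were sparse: 7 of 25 could be tested, of which Ascl2, Flt1, Plac8 and Hand1 were called higher and Serpinb9b and Limk2 lower. Limk2 lost its call against D707T blastocysts alone, in females alone and without ExE females 4 and 6 and male 2. Tpbpa, the defining marker of the cone, had 2 counts in all ExE libraries, and Gcm1, a labyrinth regulator, also had 2. Ascl2 ranged from 2.65 to 191 CPM over the ExE libraries and from 0 to 2.15 CPM in blastocysts (6.84 ± 0.834, adjusted p 7.2e-08).

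Genes of glucose uptake and lactate output rose. Of 20 glycolysis genes, 9 were called higher and 0 lower, with a median of 1.90, and 7 more passed under the 4-fold limit. That is 45% called higher, beside 16.6% of all tested genes. Ldha (mm10 chr7:46841475-46855627), which turns pyruvate into lactate, had 1738, 3119 and 4564 CPM in ExE, against 6.17, 43.7 and 110 CPM in blastocysts (6.09 ± 0.393, adjusted p 2.4e-13). Slc2a1, the main glucose transporter, had 341, 491 and 779 CPM in ExE, against 5.12, 29.6 and 69.1 CPM in blastocysts (4.0 ± 0.332, adjusted p 3.5e-11). Slc16a3, which exports lactate, rose by 4.59 (adjusted p 9.1e-11), and Pdk1 and Pdk3, kinases that keep pyruvate out of the mitochondria, by 4.97 and 6.06. Among the enzymes in between, Pfkp and Hk1 rose by 4.6 and 4.16. Tpi1, Pgk1 and Pkm stood at 1.91, 1.47 and 1.29 and Gapdh and Pgam1 at -0.76 and -1.81, all under the limit, and Aldoa, Gpi1 and Hk2 at 0.26, -0.24 and -0.20 did not pass. Gapdh, Pgk1 and other such genes have processed copies, so their values are uncertain.

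Imprinted genes that control growth were low in blastocysts and abundant in ExE. Of 38 canonical imprinted genes, 29 could be tested, 19 were called higher and 1 lower, with a median of 5.09 beside 0.05 over all tested genes. Members that passed the count filter through ExE alone had to differ, so this count supports nothing by itself. Igf2, a growth factor expressed from the paternal copy, had 141, 650 and 1341 CPM in ExE, against 0, 2.84 and 8.35 CPM in blastocysts (7.41 ± 0.555, adjusted p 1.0e-11). Its neighbour H19, a noncoding RNA of the maternal copy, had 798 to 2975 CPM in ExE and 0 to 15.0 CPM in blastocysts (9.40, adjusted p 3.4e-10). Growth restrictors also rose, with Grb10 at 7.41 (adjusted p 5.5e-13), Phlda2 at 8.08 (adjusted p 2.7e-09) and the cell cycle inhibitor Cdkn1c at 5.30 (adjusted p 3.0e-09). Peg10, needed for the placenta, and Meg3 were higher by 8.38 and 7.47. Snrpn, a splicing factor gene, was the 1 lower member, with 7.31, 14.2 and 37.2 CPM in ExE, against 108, 171 and 291 CPM in blastocysts (-3.42 ± 0.243, adjusted p 1.5e-12). Counts do not separate the parental copies, so imprinting itself was not measured.

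In noncanonical imprinting, which persists in extraembryonic tissue, silencing of the maternal allele starts from H3K27me3, a mark that was not measured here. Of 8 such genes Xist alone was called, and the list's median was 0.89. Jade1 had 125, 164 and 271 CPM in ExE, against 51.0, 65.6 and 101 CPM in blastocysts, with no overlap, and its 1.48 ± 0.168 (adjusted p 1.3e-08) stayed under the 4-fold limit. Sfmbt2, a Polycomb gene needed for trophoblast, had 47.6, 87.8 and 215 CPM in ExE, against 7.77, 40.1 and 66.3 CPM in blastocysts (1.47 ± 0.290, adjusted p 6.9e-05). Gab1, an adaptor of growth factor receptors, and Smoc1 stood at 0.83 (adjusted p 5.3e-05) and 0.95 (adjusted p 0.029). Slc38a4 and the noncoding RNAs Platr4 and Platr20 differed by -0.34, -0.42 and -1.45 without passing.

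Among subunits of PRC2, which writes H3K27me3, and its inhibitor, 2 of 14 were called lower and 0 higher. That is 14.3% lower, near the 13.8% of all tested genes. A further 8 passed under the 4-fold limit, and the list median was -0.86. Mtf2, which brings the complex to CpG islands, had 40.6, 93.2 and 155 CPM in ExE, against 324, 476 and 716 CPM in blastocysts (-2.35 ± 0.224, adjusted p 5.4e-10). Jarid2 and Suz12 stood at -1.87 (adjusted p 1.8e-08) and -1.90 (adjusted p 4.1e-07), just under the 4-fold limit. The methyltransferase Ezh2 had 118, 147 and 336 CPM in ExE, against 147, 247 and 298 CPM in blastocysts (-0.43, adjusted p 0.031), Eed stood at -0.84 (adjusted p 1.4e-04) and Rbbp7 at -0.22 (adjusted p 0.26). Ezh1, the other methyltransferase, was at 0.67 (adjusted p 0.025), and E130012A19Rik, a synonym of the PRC2 partner Epop, at 1.41 (adjusted p 6.4e-05). Ezhip itself, listed as AU022751, reached 1.16 CPM in ExE and 49.1 CPM in blastocysts, with 0 as the lowest value at both stages. The 4 blastocysts of prefix D707T had 4.22, 5.88, 18.7 and 49.1 CPM, whereas 9 of the 10 of prefix D405T had 0 to 1.33 CPM and the other had 5.46 CPM. The log2 fold change was -2.70 ± 1.10 over all blastocysts (adjusted p 0.032) and -5.35 against D707T alone (adjusted p 8.6e-05). The call was lost with limma voom (-1.65, adjusted p 0.16) and with the replicate block (-2.04, adjusted p 0.16). It was also lost when any 1 male ExE library or blastocyst female 5 was left out, with log2 fold changes from -3.12 to -2.19 when any 1 of the 24 libraries was left out.

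Of 19 genes that write, erase or guard DNA methylation, 17 could be tested, 2 were called higher, 4 lower and 11 were not called. That is 11.8% higher and 23.5% lower, beside 16.6% and 13.8% of all tested genes. Dnmt3b, the de novo enzyme of the postimplantation embryo, had 306, 648 and 876 CPM in ExE, against 41.2, 156 and 201 CPM in blastocysts (2.08 ± 0.218, adjusted p 3.2e-09). It fell short of the limit against D405T blastocysts alone (1.79), in females alone (1.57) and, at 2.00 on rounding, without blastocyst male 4 or with no count filter. Dnmt1, the maintenance enzyme, stood at 1.28 (adjusted p 1.9e-06) and Dnmt3a at 0.52 (adjusted p 0.062). Dnmt3l, a cofactor without enzyme activity, was lower (-2.13 ± 0.358, adjusted p 8.3e-06), with 14.4 to 213 CPM in ExE and 222 to 393 CPM in blastocysts, though it was not called without ExE male 1 (-1.99) or without ExE male 2 (-1.96). Tet2, which oxidises methylcytosine, fell by 3.90 (adjusted p 4.9e-09), and Zfp57, which guards imprints, by 4.05 (adjusted p 3.2e-09). Uhrf2 rose by 4.37 (adjusted p 4.4e-09), while Uhrf1, Tet3, Tdg and Trim28 were not called. Of 22 germline genes under epigenetic silencing, 17 could be tested, 5 were called higher (29.4%) and 9 lower (52.9%). Ddx4 ran from 11.1 to 56.0 CPM in ExE and from 0 to 8.15 CPM in blastocysts (4.23, adjusted p 6.4e-05), and Asz1 from 0.284 to 8.81 CPM and from 10.3 to 62 CPM (-3.01, adjusted p 2.4e-07).

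Outside the lists, the 12 largest rises by the naming rule included Nrk, Cldn2, Fabp1, Fst and Slc2a2 besides Spink1, Ttr and Rbp4, all of them at 0 counts in blastocysts. Podxl, a sialomucin of apical membranes, had 249, 623 and 1041 CPM in ExE, against 0, 0 and 0.706 CPM in blastocysts (12.46 ± 0.602, adjusted p 8.3e-16). Also among them were Apln, a peptide ligand, and Slc39a8, a zinc and manganese transporter, at 13.63 and 13.12. The 12 largest falls were led by Pramel6 and Trim43a, with 0 counts in ExE and at least 30425-fold and 12035-fold lower. Pramel5, Pramel4 and Khdc3 were also among them, and like Pramel6 and Trim43a they belong to families with near-identical copies and are uncertain. Bhmt, an enzyme of the methionine cycle, had 0, 0 and 0.222 CPM in ExE, against 195, 757 and 4478 CPM in blastocysts (-14.98 ± 0.870, adjusted p 3.7e-14). Calcoco2, an autophagy receptor gene, had 0, 0 and 1.76 CPM in ExE, against 3287, 4420 and 6793 CPM in blastocysts (-13.49 ± 0.659, adjusted p 8.2e-16). Maternal oocyte transcripts were nearly gone from ExE, with sums of 4.55 to 17.7 CPM in ExE and 684 to 2173 CPM in blastocysts. Of 22, 6 could be tested and 5 were called lower, and members that passed the count filter through blastocysts alone had to differ. Khdc3, uncertain as above, gave 560 of 684 CPM in blastocyst female 2 and 2054 of 2173 CPM in blastocyst male 5. RNA left from the oocyte and expression by the embryo cannot be told apart here.

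**Figure D3:**
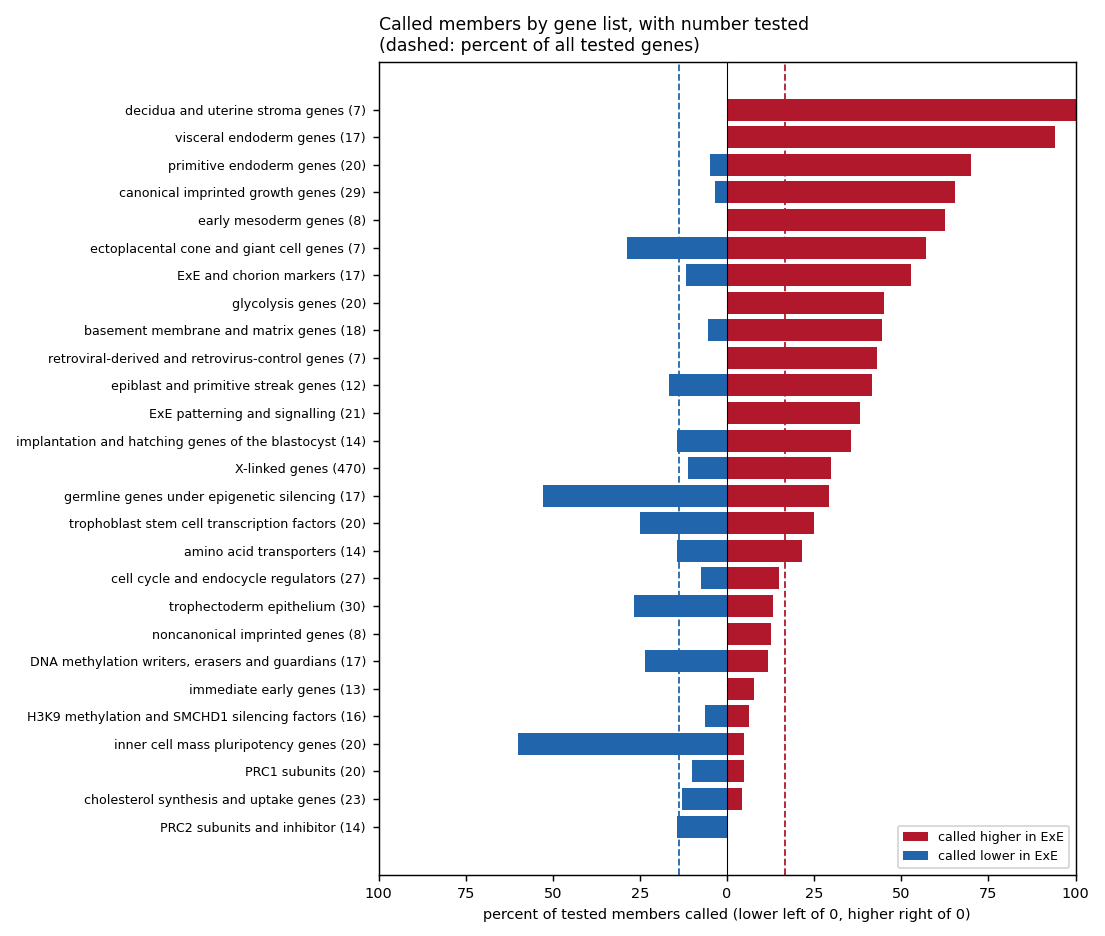
Percent of the tested members of each gene list called higher (red, right of 0) or lower (blue, left of 0) in ExE, with the number tested in brackets and dashed lines at the 16.6% and 13.8% of all tested genes. Decidua and stroma, visceral endoderm, primitive endoderm and canonical imprinted genes lie beyond the line for higher genes and pluripotency genes beyond that for lower genes. Germline genes lie beyond both lines, at 29.4% higher and 52.9% lower, as do ectoplacental cone genes and trophoblast stem cell factors. Other lists, early mesoderm (62.5% higher), ExE and chorion (52.9% higher) and trophectoderm genes (26.7% lower) among them, also lie beyond a line. Members that passed the count filter through ExE alone had to differ.

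By mean TPM, a level per transcript length, the 3 most abundant RNAs were ribosomal at both stages. Spink1 was the fourth in ExE, at 12910 ± 9170 TPM (SD, n = 10), with none in blastocysts, and Calcoco2 the seventh in blastocysts, with 0.373 ± 0.682 TPM in ExE (SD, n = 10) and 6471 ± 1147 TPM in blastocysts (SD, n = 14). Eef1a1, a translation elongation factor gene, had 1266 ± 470 TPM in ExE (SD, n = 10), against 12851 ± 3806 TPM in blastocysts (SD, n = 14), a log2 fold change of -3.12 (adjusted p 1.3e-11). Ribosomal protein genes and Eef1a1 have many processed copies, and their values are uncertain.

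Upstream bases of 4 genes show the range of promoter composition in both directions. CpG pairs are in capitals, and each run is the 250 bases before the annotated start, from RefSeq promoters of GRCm38.p6, read 5′ to 3′ on the strand of the gene. Ascl2 (chr7:142969265-142969514, minus strand) and Fabp1 (chr6:71199629-71199878, plus strand) were called higher, and Mtf2 (chr5:108065424-108065673, plus strand) and Pou5f1 (chr17:35505782-35506031, plus strand) lower.
Ascl2: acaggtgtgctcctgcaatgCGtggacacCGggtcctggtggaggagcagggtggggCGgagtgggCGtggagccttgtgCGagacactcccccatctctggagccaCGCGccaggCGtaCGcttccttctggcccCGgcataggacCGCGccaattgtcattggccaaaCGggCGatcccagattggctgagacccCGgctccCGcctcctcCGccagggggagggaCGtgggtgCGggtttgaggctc
Fabp1: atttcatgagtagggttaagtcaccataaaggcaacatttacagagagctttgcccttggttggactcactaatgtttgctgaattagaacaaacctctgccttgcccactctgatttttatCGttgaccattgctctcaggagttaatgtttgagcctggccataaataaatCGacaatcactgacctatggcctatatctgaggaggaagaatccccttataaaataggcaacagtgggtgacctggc
Mtf2: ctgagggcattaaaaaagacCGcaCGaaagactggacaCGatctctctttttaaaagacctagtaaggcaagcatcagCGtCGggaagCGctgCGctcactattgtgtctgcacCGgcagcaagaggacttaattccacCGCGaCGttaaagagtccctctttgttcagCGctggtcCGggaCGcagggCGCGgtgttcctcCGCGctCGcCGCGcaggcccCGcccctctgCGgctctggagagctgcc
Pou5f1: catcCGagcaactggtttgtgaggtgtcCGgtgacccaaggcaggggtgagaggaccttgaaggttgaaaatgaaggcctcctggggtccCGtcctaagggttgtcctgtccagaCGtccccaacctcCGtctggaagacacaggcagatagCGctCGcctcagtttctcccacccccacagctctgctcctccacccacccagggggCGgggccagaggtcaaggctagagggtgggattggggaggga
They hold 19, 2, 23 and 8 CpG pairs in that order. Over the 300 bases around the start, the CpG ratio (observed over expected from the base content) had a median of 0.704 in 1114 genes called higher, 0.646 in 983 genes called lower and 0.809 in 5699 genes not called. A ratio under 0.4 was found for 19.4% of the higher, 27.9% of the lower and 7.46% of the genes not called, and for 11.7% of all 7796 tested genes with a promoter. Only 60% of the tested genes had a RefSeq start within 200 bases of the start in the deposited tables. That share is too small, so the check of promoter composition is void for the gene sets and these values describe the matched genes only.

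Xist, the RNA that coats an inactive X chromosome, was present in male ExE. Its values in the 4 males were 38.5, 119, 165 and 248 CPM in ExE, against 0 to 4.42 CPM with a median of 0.667 in the 8 male blastocysts. In females it ran from 84.3 to 2727 CPM in ExE with a median of 373, and from 175 to 756 CPM in blastocysts with a median of 416. Male ExE thus lay above every male blastocyst and overlapped female ExE, while the female groups overlapped. The log2 fold change was 3.83 ± 0.993 over both sexes (adjusted p 0.0014), 6.62 ± 0.808 in males alone (adjusted p 8.1e-06) and 0.60 ± 0.660 in females alone (adjusted p 0.46). With libraries paired by label number as a replicate block it was 1.87 (adjusted p 0.19) and with limma voom 0.84 (adjusted p 0.30), so the call over both sexes was lost in both. The female minus male difference of -6.00 did not pass the stage-by-sex test (adjusted p 0.076), in which edgeR called 0 of 12993 genes, 0% of those tested, while 692 had an unadjusted p under 0.05 and DESeq2 called 20. Xist itself passed that test with the newer edgeR dispersion fit (-5.99, adjusted p 0.0062), with DESeq2 (-5.99, adjusted p 0.0041) and after thinning to equal depth (-5.89, adjusted p 0.021). It also passed without blastocyst male 2 (-6.58, adjusted p 0.016), without ExE female 4 (-7.29, adjusted p 0.0015) and without the 3 ExE libraries that stood apart (-7.87, adjusted p 0.0019). Ftx, a noncoding neighbour of Xist, had 2.03 to 6.91 CPM in male ExE against 0 to 0.441 CPM in male blastocysts, and 3.07 to 8.40 CPM in female ExE against 3.15 to 6.35 CPM in female blastocysts. The Y-linked gene Ddx3y stood at 86.4 to 181 CPM in the same 4 male ExE libraries and at 29.3 to 72.2 CPM in male blastocysts, and reached 3.11 CPM in 1 female ExE library. Decidua genes summed to 275 to 497 CPM in male ExE and 214 to 736 CPM in female ExE. Pdpn gave 90.8 of 275 CPM in ExE male 1 and 409 of 497 CPM in ExE male 2. The sum therefore does not measure decidua alone, and the part of decidua in the Xist values was not tested.

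Tested X-linked genes had a higher mean level relative to tested autosomal genes in ExE of both sexes. Only genes that passed the count filter in these same libraries were read. Some X-linked genes passed through ExE alone, such as Nrk and Cldn2 with 0 counts in blastocysts, and these raise the difference in advance. The p-values do not account for this choice of genes, and its part in the difference was not tested. The measure is the mean log2 CPM of 469 X-linked genes without Xist minus that of 12517 autosomal genes. In females it was 0.09 ± 0.17 in ExE (SD, n = 6) and -0.68 ± 0.17 in blastocysts (SD, n = 6), a difference of 0.77 (two-sided exact permutation p 0.0022, the smallest that 6 against 6 allows; 0.004 adjusted over both sexes). In males it was 0.18 ± 0.23 in ExE (SD, n = 4) and -0.80 ± 0.20 in blastocysts (SD, n = 8), a difference of 0.98 (two-sided exact permutation p 0.004, the smallest that 4 against 8 allows; 0.004 adjusted over both sexes). Every ExE library lay above every blastocyst of its sex. With the log2 ratio of summed CPM as the measure, the differences were 0.34 in females and 0.62 in males (exact permutation p 0.0065 and 0.004). Against D405T blastocysts alone the differences were 0.71 and 0.92 (exact permutation p 0.0043 and 0.016). Of 470 tested X-linked genes, 140 were called higher and 53 lower, or 29.8% and 11.3%, and the chromosome's median of 0.52 was the highest of 20, with autosomes between -0.13 and 0.40.

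**Figure D4:**
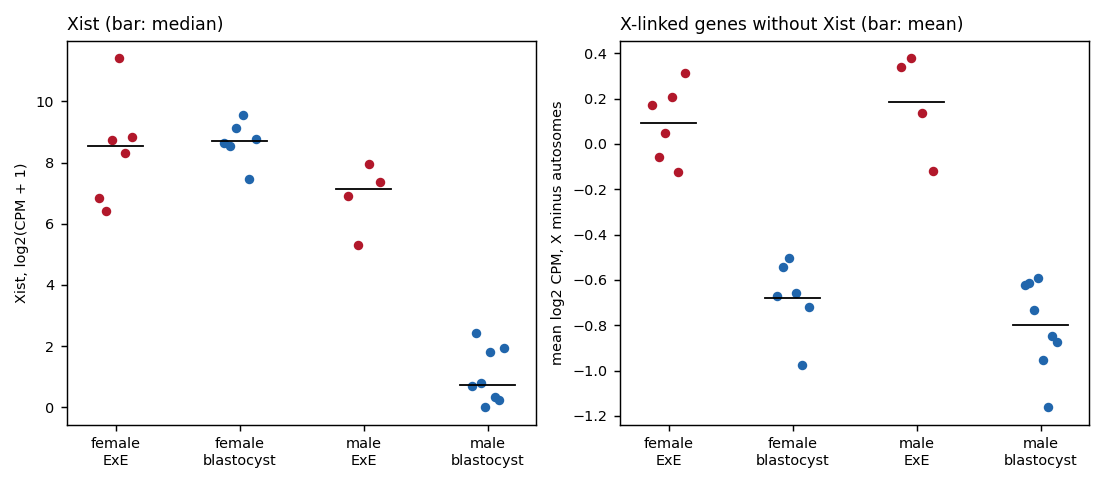
Left, Xist as log2 of CPM plus 1, and right, mean log2 CPM of X-linked genes without Xist minus that of autosomal genes, for female and male WT ExE (red, n = 6 and 4) and WT blastocysts (blue, n = 6 and 8). Points are libraries, bars are the median on the left and the mean on the right, and male ExE lies above male blastocysts in both panels while female groups overlap for Xist.

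The prefixes set the scale of library differences. Within WT blastocysts, 428 of 13332 genes, 3.21%, were called between D707T and D405T, 118 higher and 310 lower in D707T. Of the stage-called genes tested there, 182, or 5.65%, were also called between the prefixes. Against the blastocysts of each prefix alone, 1755 of 2125 higher genes (82.6%) and 1105 of 1384 lower genes (79.8%) that could be tested with both were called both times. These comparisons share the ExE libraries.

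The matKO libraries of prefix D707T repeat the step with both stages under 1 prefix, though with another genotype. There 2020 of 11229 genes, 18%, were called higher and 1038, 9.24%, lower in ExE. Of the genes called higher in WT, 1528 could be tested, of which 1217 (79.6%) were called higher and 98.7% had the same direction. Among the lower genes 1337 could be tested, and 767 (57.4%) were called lower with 92.1% in the same direction. None of the higher genes was called in the opposite direction and 9 of the lower genes were. Tfap2a was among these, at -4.01 in WT and 2.10 in matKO (adjusted p 0.016), as was the actin capping gene Capg, chosen after its values were seen, at -3.60 and 3.12. Krt8 and Eef1a1 stood at 0.09 and -0.33 in matKO, against -3.42 and -3.12 in WT, whereas Aqp9, Dppa3, Cdx2 and Gata3 were at -9.23, -9.04, -3.46 and -3.34. WT and matKO ExE differ in both prefix and genotype, so for the ExE levels of genes like Krt8 these cannot be told apart. Blastocysts of prefix D707T exist in both genotypes. There Tfap2a ran from 10.2 to 15.9 CPM in 4 WT blastocysts and had a mean of 0.735 CPM in 8 matKO blastocysts, scaled separately. The cause was not tested.

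**Figure D5:**
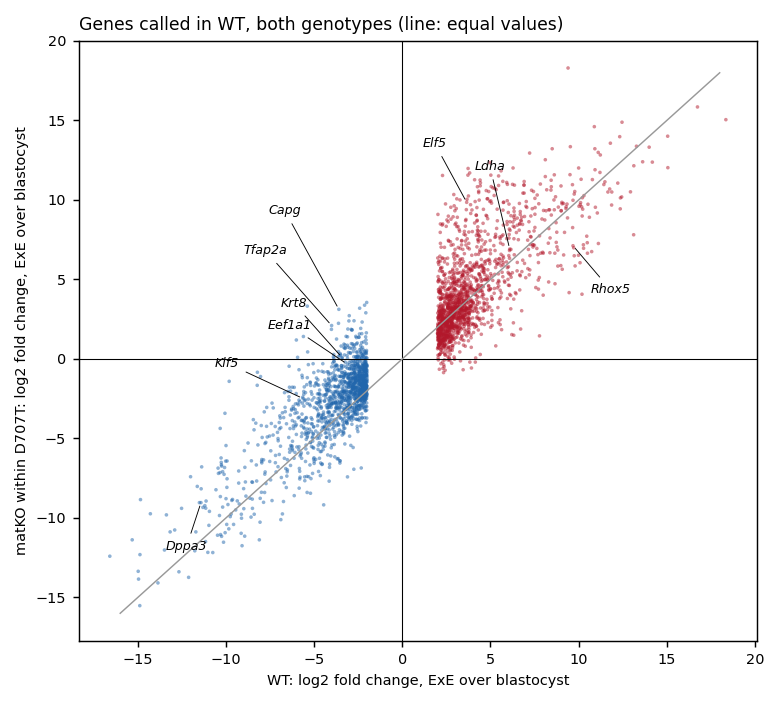
Log2 fold change of ExE over blastocyst in WT (10 and 14 libraries, prefixes differ) on the horizontal axis and in matKO within D707T (8 and 8 libraries) on the vertical axis, for genes called higher (red) or lower (blue) in WT and tested in both. Higher genes lie almost entirely above 0 in matKO, and some lower genes, Krt8, Eef1a1 and Tfap2a among them, lie near or above 0.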

How the data were processed

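The deposited tables hold the authors' raw counts per gene, 1 table per stage, with positions on mm10. Trim Galore, STAR, SAMtools and featureCounts come from the submitters' processing notes, and settings and strand use are not known here. Each library is labelled as a single embryo, and the labels do not say which embryos shared a litter, so p-values measure spread between embryos whose litters are unknown. The stage tables were joined by gene symbol. Of 48321 genes, 12993 passed filterByExpr with a minimum count of 10. In every gene list, members that passed this filter through 1 stage alone had to differ. Library sizes were scaled by TMM in edgeR 4.0.16 (R 4.3.3), dispersions came from estimateDisp, and glmQLFit and glmQLFTest (robust, legacy=TRUE) were run with sex as a term. Tables also held 8 columns with no matching sample, which were not used. The members and gene lists were chosen with earlier results of these data known. Named genes followed a rule: the 12 largest rises and falls with a mean of at least 20 CPM that held at 4-fold against blastocysts of each prefix, every member of 4 lists, up to 4 called members each way of the others, 5 genes of smallest stage-by-sex p and the 10 highest in TPM per stage. Some genes under the rule are not reported here. Other list members named were chosen after their values were seen. No libraries within a stage agreed within sampling noise (lowest chi-square per degree of freedom 27.0). The fit was tested on simulated data with known changes. Floors and intervals cover counting error only. Alternatives used limma 3.58.1 voom, DESeq2 1.42.0, other scalings, thresholds, libraries and depths.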

Additional observations from a re-analysis of the deposited data

Results flagged for a closer look

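A single library stood far from the other 9 ExE libraries for 9 of 184 groups of values examined, and chance gives about 1 in 20. Fabp1 was highest in female 2, at 239 CPM, where the others ran from 46.2 to 98.7 CPM. Rhox5 was lowest in male 1, at 636 CPM, below 1411 to 2289 CPM in the others. Sox7 was highest in female 3, at 145 CPM (others 23.6 to 44.9 CPM), as was Serpinb9b, at 9.14 CPM (others 0.227 to 2.38 CPM). Dppa3 was highest in male 1, at 2.22 CPM (others 0 to 0.849 CPM). Pou3f1, an epiblast factor gene, was lowest in female 2, at 3.53 CPM (others 15.0 to 37.6 CPM). Ezh2 was highest in female 6, at 336 CPM (others 118 to 202 CPM). Male 2 was highest for Rbbp4, at 18 CPM (others 1.28 to 6.0 CPM), and lowest for the cyclin gene Ccnd3, at 10.3 CPM (others 27.6 to 81.7 CPM). Ccnd3 was called lower in ExE (-3.24).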

How the results depend on the processing

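Against 2153 genes higher and 1796 lower, counts moved by over 1.5 times with no count filter (6521 higher, 3414 lower), a 2-fold limit (3484 and 3261) and an 8-fold limit (1344 and 1105). In matKO the same settings gave 5274 and 1952, 3071 and 2081, and 1319 and 573. Between prefixes a 2-fold limit gave 1515 genes and an 8-fold limit 207. Leaving out 1 library gave 2129 to 2218 higher and 1722 to 1878 lower. The replicate block gave 2360 higher and 1759 lower. The 10 same-number pairs had correlations of -0.05 to 0.12 in their deviations, and 1 ExE library correlated best with its own number, so the samples share a number only. Stage by sex gave 3 genes with the newer dispersion fit, 1 with limma voom, 20 with DESeq2, 2 after thinning, 1 without the 3 ExE libraries (chosen after seeing the data) and 0 to 3 without 1 library. It gave 2 without blastocyst male 1, 3 without blastocyst male 2, and 1 without ExE female 3 or female 4. The X-linked difference lay between 0.71 and 0.81 in females and 0.92 and 1.08 in males without 1 library, and at 0.34 and 0.62 from summed CPM. Of 148 called named genes, 125 kept their call in every setting in which they were tested and 23 lost it in at least 1. Some of the 125, such as Fst and Slc6a14, were not tested in every setting. The 12 largest rises and 12 largest falls were named only if they held at 4-fold against blastocysts of each prefix. Members of most lists were named for a small p. The share that kept its call was therefore in part fixed by the choice of genes.

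Signs turned for 11 named genes, none of them called with the settings reported, and the cause was not tested. Against D707T blastocysts alone, Eomes was at 0.53, Gata2 at 2.10 (past the limit, adjusted p 0.022), Slc38a4 at 0.25, Lcor at 0.44, Mbd1 at -0.26, Rplp1 at -0.77 and Rps23 at -0.10. Against D405T alone, Zfp445 was at 0.41 and Rps3a1 at 0.04. In females, Platr4 was at 0.02 and Rps3a1 at 0.11, and in males Rplp1 at -0.10. With the replicate block, Zfp445 was at 1.23 and Mbd1 at -0.09. With limma voom, Zfp445 was at 0.32 and Mbd1 at -0.05, and with no filter Mbd1 at -0.01. Without the 3 ExE libraries, Mbd1 was at -0.52, Rpl4 at -0.17 and Rps3a1 at 0.19. Without 1 library, Mbd1 ran from -0.14 to 0.12, Rplp1 from -0.06 to 0.38 and Rps3a1 from -0.22 to 0.04.

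Depth limits genes of a few counts: 3 counts over the group equal 0.0268 CPM in ExE and 0.0116 CPM in blastocysts, and thinning every library to the smallest total gave 1597 higher and 1393 lower genes.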

Other observations

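Cell cycle genes differed in single members. Of 28, 27 could be tested, 4 were called higher and 2 lower, with a median of 0.29. The D-type cyclin gene Ccnd2 had 3.26, 17.7 and 81.7 CPM as lowest, median and highest value in ExE and a median of 1.67 CPM in blastocysts (3.75, adjusted p 4.8e-05), and Ccnd3 had a median of 46.7 CPM in ExE and 433 CPM in blastocysts. The inhibitor gene Cdkn1b (3.92, adjusted p 3.3e-08) and E2f7 (3.07, adjusted p 4.4e-08) were higher and Mybl2 lower (-2.11, adjusted p 2.6e-06). Mybl2 was under the 4-fold limit against D707T blastocysts alone (-1.05), in females alone (-1.92), with the replicate block (-1.78), RLE scaling, limma voom and DESeq2 (-1.95 to -1.99), and without the 3 ExE libraries, blastocyst male 8 or ExE male 2 (-1.95 to -2.0). Of 14 tested amino acid transporter genes, Slc38a2 (4.45, adjusted p 1.7e-06), Slc43a2 (3.58, adjusted p 2.6e-04) and Slc1a5 (2.15, adjusted p 2.3e-05) were called higher. Slc1a5 was under the limit with limma voom (1.97), against D405T blastocysts alone (1.98), in females alone (1.78) and without the 3 ExE libraries (1.41), ExE female 6 (1.91) or ExE male 2 (1.95). Slc6a14 (-10.38, adjusted p 3.4e-11) and Slc1a1 (-4.46, adjusted p 2.1e-12) were called lower. Of 23 tested cholesterol genes, Cyp51 was called higher (3.65, adjusted p 1.7e-07) and Fdps and Insig1 were called lower (-2.89, adjusted p 4.8e-06, and -2.92, adjusted p 8.8e-08).

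Among 20 tested PRC1 genes, Cbx6 was called higher (4.20, adjusted p 1.0e-06) and Rybp and Kdm2b lower (-2.77 and -3.34). Suv39h1, a methyltransferase of H3K9, had 72.3, 157 and 407 CPM in ExE and a median of 24.5 CPM in blastocysts (2.64, adjusted p 1.7e-09), and Mphosph8 was the 1 lower of 16 H3K9 genes (-2.10, adjusted p 2.2e-04). Mphosph8 was under the limit with RLE scaling, the newer dispersion fit, DESeq2 and no sex term (-1.89 to -1.99), against D707T blastocysts alone (-1.67), in females alone (-1.52) and without blastocyst female 2, ExE female 3 or ExE male 3 (-1.97 to -1.99). Of 15 Rhox genes 3 could be tested and were called higher, though Rhox9 (4.22, adjusted p 0.003) was not called against D707T blastocysts alone (1.60, adjusted p 0.057) or in males alone (2.58, adjusted p 0.17). Genes that passed the count filter through ExE alone had to differ. Of 3 tested transcripts of the 2-cell stage, 2 were called lower. Of 13 tested immediate early genes, Egr1 alone was called (4.02, adjusted p 1.4e-04). Of 7 genes derived from or controlling retroviruses tested, 3 were called higher and 0 lower. Background shares are the 16.6% and 13.8% given above.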
